A study of Mus musculus with 30 samples.

Results

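The 43 genes described here encode DNA damage checkpoint kinases and DNA repair enzymes. They were taken by name from a list of repair and checkpoint genes, and all 43 were found among the 23284 genes that both expression tables of the series hold. By role they are 4 checkpoint kinases, 8 genes of homologous recombination, 3 of the break-sensing MRN complex, 2 RecQ helicases, 5 of non-homologous end joining, 3 of single-strand break repair, 3 of mismatch repair, 9 of nucleotide excision repair, 2 translesion polymerases and 4 of the Fanconi anaemia pathway. No cut on a measured value was used to choose them, but the list was drawn up with earlier results of these data known.

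Cells answer broken or blocked DNA through kinases, with ATM acting at double-strand breaks and ATR at stalled replication forks. These kinases activate CHK2 and CHK1 and stabilise p53, while separate enzyme sets remove mismatches, bulky adducts, single-strand nicks, crosslinks and double-strand breaks. Mouse embryonic stem (ES) cells divide fast with a short G1 phase and are known to rely heavily on homologous recombination. Many recombination and replication-linked repair genes are known E2F targets and are transcribed as cells enter S phase.

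RNA was sequenced from 14 libraries, 2 in each group. In the time course, 10 libraries came from wild-type E14Tg2a.IV cells on a 129/Ola background, as ES cells at day 0 and as embryoid bodies (EBs, aggregates of differentiating ES cells) at days 1, 2, 3 and 4. In the genotype comparison, 4 libraries came from day 4 EBs on a C57BL/6J background, 2 from a Trp53-/- line with p63shRNA and p73shRNA, hairpins that knock down both relatives of p53 (below, p53 family loss) and 2 from a Trp53+/+ line. The E14 cells were kept in serum with LIF and the Trp53 lines in N2B27 medium with LIF and 2 inhibitors, and the labels name no control hairpin in the Trp53+/+ line and do not say whether either line is 1 clone. Nothing in them ties paired libraries to separate cultures, and the p-values here therefore measure only the spread between these samples, which may be technical.

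Libraries held 20104644 to 39835808 reads on genes in the time course and 19104692 to 31580252 in the genotype comparison, and all 43 genes passed the filter on low values in both. Values are the deposited signal, a read count divided by 1 size factor per library, which allows the same gene to be compared between libraries of 1 table. Differences are log2 fold changes ± SE on log2(signal + 1) from limma, and a gene was called at a Benjamini-Hochberg adjusted p under 0.05 over all tested genes. The labels were checked first. Trp53 had a signal of 866 and 802 in the p53 family loss libraries, against 8339 and 11784 in Trp53+/+, and Trp73 had 48.0 and 52.5 against 219 and 297. Trp63 was near 0 in both lines, with at most 6.08. In the time course, 10 of 10 primitive streak markers rose and 9 of 10 pluripotency markers fell by day 4 (limma).

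Between day 4 and day 0, 9 of the 43 genes were lower and 0 were higher by limma, against 16.7% of all 15841 tested genes called lower and 19.2% called higher. The members' share of 20.9% called in either direction is below the 36% of all genes. The 9 lower genes were Xrcc5, Msh6, Fanci, Xrcc6, Bard1, Ercc4, Chek1, Chek2 and Parp1, which span end joining, mismatch repair, crosslink repair, homologous recombination, excision repair and both checkpoint effector kinases. Over all 43 genes, 30 fold changes were below 0 and 13 above, with a median of -0.10, beside 0.01 over all tested genes. This direction rests on the day 0 libraries. Without the first, 34 fold changes were below 0 and 9 above (median -0.32), and without the second, 17 were below 0 and 26 above (median 0.11). In the EBs, which hold many cell types, fewer cells that use a gene and less RNA of it per cell cannot be told apart. Both day 4 libraries lay above both day 0 libraries in 6 genes (34% of all genes did so) and below them in 12 (32.7%). An unadjusted p under 0.05 was reached by 12 genes (46.6% of all genes), DESeq2 called 10 lower (19.6% of all genes) and 1 higher (20%), and edgeR called the same 9 lower and 0 higher.

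**Figure D1:**
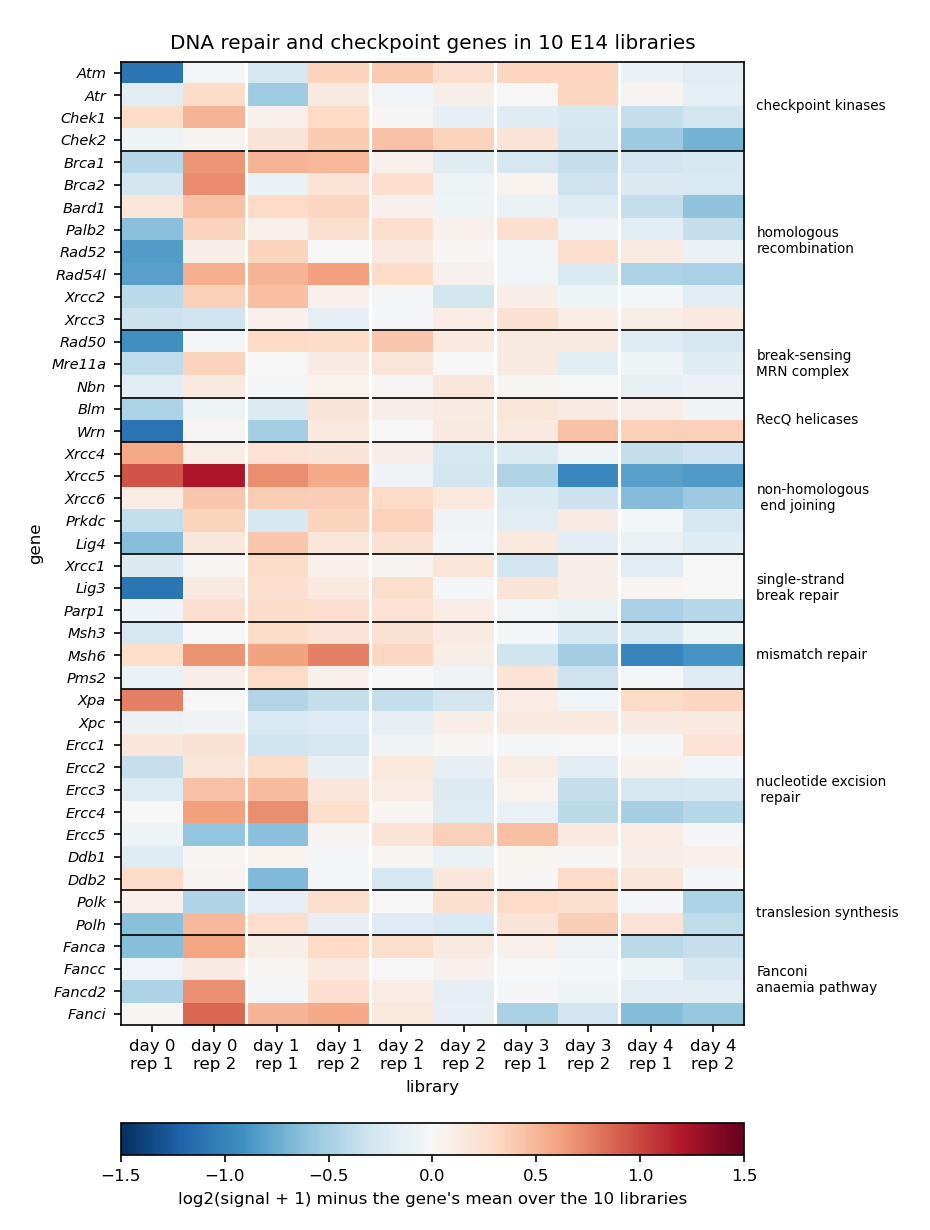
Signal of the 43 genes (rows, grouped by role) in the 10 E14 libraries (columns), as log2(signal + 1) minus the gene's mean over the 10 libraries, with red above and blue below that mean. Xrcc5 and Msh6 go from red at days 0 and 1 to blue at days 3 and 4, and the first day 0 library is bluer than the second for most genes (38 of 43).

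Among the 4 checkpoint kinases, the effectors Chek1 and Chek2 were called lower at day 4, while the sensors Atm and Atr had no change called. Sensors and effectors were not tested against each other. Chek1, the effector kinase of ATR, had 2713 and 3192 at day 0, 2375 and 2771 at day 1, 2271 and 2062 at day 2, 1983 and 1901 at day 3, and 1752 and 1857 at day 4. Its mean fell on each day, both day 4 libraries lie below both day 0 libraries, and the log2 fold change was -0.71 ± 0.17 (adjusted p = 0.00924). Chek2, the effector kinase of ATM, had 2227 and 2404 at day 0, 2674 and 3075 at day 1, 3165 and 2958 at day 2, 2662 and 1931 at day 3, and 1605 and 1423 at day 4. It stood highest at day 2, and its day 4 libraries lay below all 8 earlier ones, with a log2 fold change from day 0 of -0.61 ± 0.19 (adjusted p = 0.0299). Atm had 2116 and 4466 at day 0, 3817 and 5739 at day 1, 5939 and 5444 at day 2, 5667 and 5694 at day 3, and 4287 and 4034 at day 4, so the spread between its day 0 libraries covers its day 4 values (0.44 ± 0.31, adjusted p = 0.291). Atr had 2905 and 3924 at day 0, 2227 and 3542 at day 1, 3144 and 3427 at day 2, 3222 and 4028 at day 3, and 3332 and 2953 at day 4. Its groups overlapped and its log2 fold change was -0.11 ± 0.24 (adjusted p = 0.755).

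Of the 8 homologous recombination genes, 1 was called. Bard1, the RING partner of BRCA1, had 1961 and 2355 at day 0, 2137 and 2173 at day 1, 1809 and 1661 at day 2, 1616 and 1515 at day 3, and 1352 and 1142 at day 4. It was flat to day 1 and lower on each later day, with a log2 fold change of -0.79 ± 0.17 (adjusted p = 0.00671). Brca1 itself had 2716 and 5770 at day 0, 5185 and 5149 at day 1, 3824 and 3224 at day 2, 3060 and 2838 at day 3, and 2991 and 3091 at day 4. Its 2 day 0 libraries lie on either side of the day 4 pair, and the fold change was -0.38 ± 0.29 (adjusted p = 0.319). Brca2, a mediator of homologous recombination, had 2457 and 4863 at day 0, 2787 and 3454 at day 1, 3547 and 2837 at day 2, 3096 and 2403 at day 3, and 2577 and 2539 at day 4 (-0.43 ± 0.29, adjusted p = 0.265). Without the first day 0 library Brca1 was called lower (-0.92, adjusted p = 0.00146) and so was Brca2 (-0.93, adjusted p = 0.00696), and without the second they stood at 0.16 and 0.06.

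Among the other recombination genes, Xrcc3, which acts in strand exchange, had 985 and 1007 at day 4, against 729 and 743 at day 0. Its groups did not overlap, but it missed the threshold (0.44 ± 0.18, adjusted p = 0.0827). Palb2, Rad52, Rad54l and Xrcc2 had fold changes of -0.34 (Rad54l) to 0.39 (Rad52), each with overlapping groups. Rad50, Mre11a and Nbn, the parts of the MRN complex that binds broken ends, had -0.10 (Mre11a) to 0.24 (Rad50). Both RecQ helicases, which unwind recombination intermediates, had day 4 libraries above both day 0 libraries. Wrn had 891 and 893 at day 4, against 323 and 702 at day 0 (0.90 ± 0.35, adjusted p = 0.0673), and Blm had 4554 and 4115 against 3069 and 4035 (0.30 ± 0.19, adjusted p = 0.237).

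Both subunits of the Ku ring, which caps double-strand ends for non-homologous end joining, were lower at day 4. Xrcc5, which encodes Ku80, had 5931 and 7139 at day 0, 5011 and 4551 at day 1, 2962 and 2539 at day 2, 2249 and 1567 at day 3, and 1751 and 1713 at day 4. This is 0.266 times the day 0 level (log2 fold change -1.91 ± 0.20, adjusted p = 0.000124), and its mean fell on each day. Xrcc6, which encodes Ku70, had 3655 and 4469 at day 0, 4387 and 4367 at day 1, 4114 and 3754 at day 2, 2938 and 2707 at day 3, and 2155 and 2318 at day 4. It stayed level to day 2 and then declined (-0.85 ± 0.16, adjusted p = 0.00300). Xrcc4, the scaffold of DNA ligase IV, had 170 and 176 at day 4, against 326 and 236 at day 0 (-0.68 ± 0.28, adjusted p = 0.0822). Lig4 (0.09 ± 0.28) and Prkdc, the catalytic subunit of DNA-PK (-0.13 ± 0.28), had overlapping groups.

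In single-strand break repair, Parp1, the nick sensor that builds poly(ADP-ribose) chains, was lower. Its signal was 21834 and 27131 at day 0, 27583 and 27050 at day 1, 26481 and 24471 at day 2, 22071 and 21215 at day 3, and 16160 and 16886 at day 4. The day 4 libraries lay below all earlier ones (-0.56 ± 0.16, adjusted p = 0.0195). Lig3, the ligase of this pathway, had 4252 and 4207 at day 4, against 1953 and 4572 at day 0, and its scaffold Xrcc1 had a fold change of 0.00 ± 0.18. Of the mismatch repair genes, Msh6, which recognises base mismatches, had 22018 and 29270 at day 0, 27900 and 31136 at day 1, 22789 and 19540 at day 2, 14951 and 12844 at day 3, and 9273 and 9926 at day 4. The day 4 level was 0.378 times that of day 0 (-1.40 ± 0.18, adjusted p = 0.000410), with a lower mean on each day after day 1. Msh3, which recognises insertion and deletion loops, had -0.02 ± 0.17, and Pms2, of the downstream endonuclease, had -0.11 ± 0.21.

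Nucleotide excision repair, which cuts out bulky lesions such as ultraviolet photoproducts, had 1 of 9 genes called. Ercc4, which encodes the XPF nuclease, had 807 and 1232 at day 0, 1302 and 965 at day 1, 818 and 701 at day 2, 747 and 604 at day 3, and 568 and 597 at day 4 (-0.77 ± 0.26, adjusted p = 0.0390). Its partner Ercc1 had -0.10 ± 0.18. Xpc, the damage sensor, had 1145 and 1167 at day 0, 1035 and 1060 at day 1, 1119 and 1305 at day 2, 1343 and 1341 at day 3, and 1334 and 1347 at day 4. Its day 4 libraries lay above its day 0 libraries without reaching the threshold (0.21 ± 0.17, adjusted p = 0.338). Ddb2, the photoproduct sensor, had 380 and 319 at day 0, 196 and 307 at day 1, 258 and 350 at day 2, 314 and 379 at day 3, and 353 and 305 at day 4 (-0.08 ± 0.30, adjusted p = 0.844). The other 5 genes had fold changes of -0.37 (Ercc3) to 0.38 (Ercc5).

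Fanci, a subunit of the clamp that is ubiquitinated at DNA crosslinks, was the called gene of the Fanconi anaemia pathway. Its signal was 2286 and 4100 at day 0, 3228 and 3358 at day 1, 2523 and 2078 at day 2, 1610 and 1855 at day 3, and 1437 and 1520 at day 4. The log2 fold change was -1.05 ± 0.25 (adjusted p = 0.00985), and it moved to -1.47 without the first day 0 library and to -0.63 without the second, with a call each time (adjusted p = 0.000215 and 0.0157). Fancd2, its partner in the clamp, had 2365 and 2362 at day 4, against 1919 and 4280 at day 0, with overlapping groups. Fanca and Fancc, of the core complex, had -0.35 ± 0.32 and -0.19 ± 0.20. The translesion polymerase genes Polk and Polh had -0.06 ± 0.25 and -0.01 ± 0.36.

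**Figure D2:**
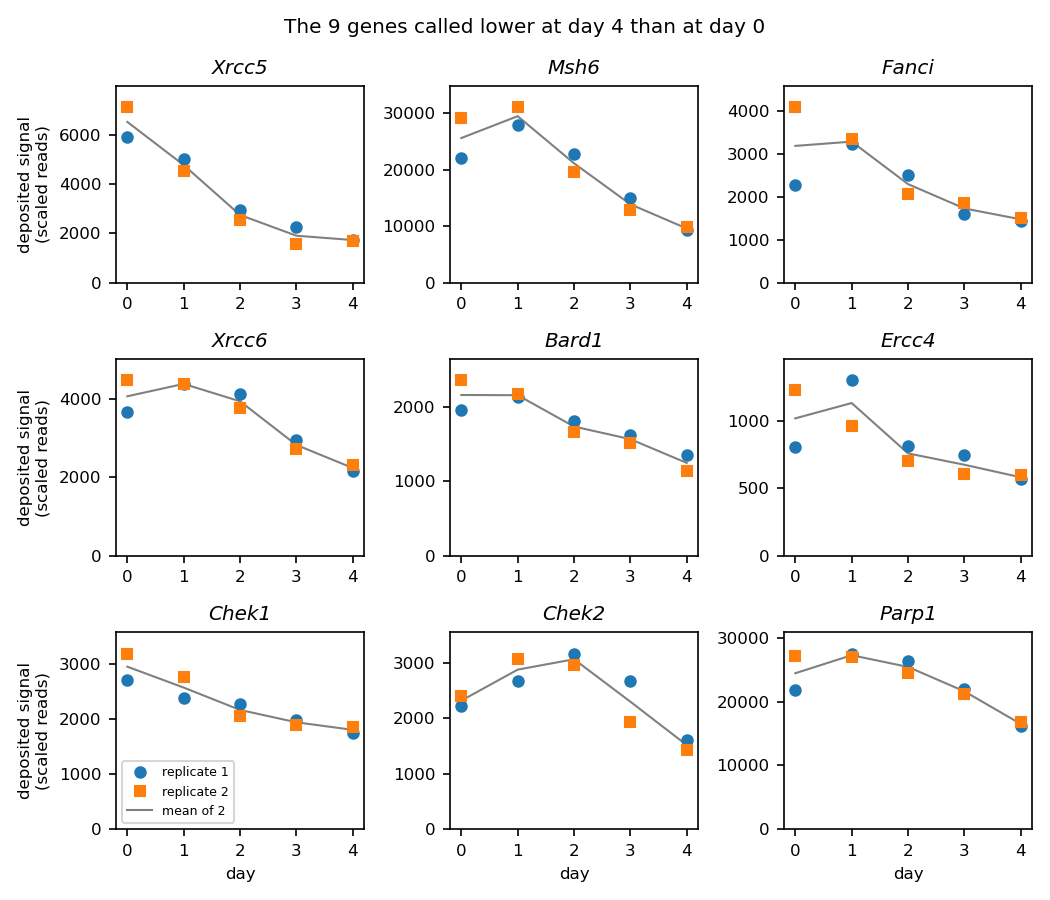
Deposited signal by day in the E14 libraries of the 9 genes called lower at day 4 than at day 0, with replicate 1 as circles, replicate 2 as squares and a line through the mean of 2. Both day 4 libraries lie below both day 0 libraries for each gene, and Fanci and Ercc4 have the widest gap between their day 0 libraries relative to their level.

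Xrcc5, Xrcc6 and Msh6 were called lower in all 24 alternative settings, Bard1 in 22, Chek1 and Fanci in 21, Parp1 in 20, Chek2 in 17 and Ercc4 in 14. Among the 24 are 2 settings, added after the data were seen, that set day 4 against day 1 instead of day 0. All 9 genes were called in both, so each tally includes them. The count of lower genes was 16 without the first day 0 library, 9 without the second, 4 without the first day 4 library (7.78% of all genes), 3 without the second (8.24%), and 3 with only days 0 and 4 in the fit (8.23%). With scaling by library total, which moved the median of all genes to 0.17, 6 genes were lower (12.9% of all genes) and 2, Wrn and Xrcc3, higher (23.2%), and the members' median was 0.05.

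Promoters were read for motifs. RefSeq (GRCm38.p6) gave 37 promoters for 34 of the 43 genes, each running from 250 bases before to 50 bases after the transcription start. An E2F-type motif (TTTCCCGC, TTTGGCGC, TTTCGCGC or TTTGGCGG, on either strand, where TTTGGCGC and TTTCGCGC can overlap) was in 7 of the 37 (18.9%), beside 3.90% of the 14145 promoters of tested genes and 2.37% of all 32851. Of the 9 lower genes, 5 have one, and their promoters are shown because they carry it, with the motif in capitals. Msh6 holds TTTCCCGC 15 bases into the transcript, Bard1 holds it with its first base at -209, and Chek1 holds TTTGGCGG at 39. In Xrcc6 (-46) and Chek2 (-152) TTTCCCGC is on the opposite strand and is printed as GCGGGAAA.
Msh6 promoter, chr17:87974800-87975099, plus strand: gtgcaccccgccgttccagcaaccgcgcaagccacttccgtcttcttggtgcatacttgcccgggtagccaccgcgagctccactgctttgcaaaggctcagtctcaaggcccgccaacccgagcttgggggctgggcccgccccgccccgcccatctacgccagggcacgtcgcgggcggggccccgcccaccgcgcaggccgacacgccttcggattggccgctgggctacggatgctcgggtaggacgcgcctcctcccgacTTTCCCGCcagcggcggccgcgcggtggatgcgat
Xrcc6 promoter, chr15:82016119-82016418, plus strand: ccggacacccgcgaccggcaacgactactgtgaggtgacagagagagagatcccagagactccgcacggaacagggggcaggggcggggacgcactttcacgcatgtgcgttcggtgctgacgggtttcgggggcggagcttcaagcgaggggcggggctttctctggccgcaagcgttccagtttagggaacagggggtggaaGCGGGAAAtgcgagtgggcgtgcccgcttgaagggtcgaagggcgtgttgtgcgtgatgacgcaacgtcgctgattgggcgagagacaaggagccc
Bard1 promoter, chr1:71102923-71103222, minus strand: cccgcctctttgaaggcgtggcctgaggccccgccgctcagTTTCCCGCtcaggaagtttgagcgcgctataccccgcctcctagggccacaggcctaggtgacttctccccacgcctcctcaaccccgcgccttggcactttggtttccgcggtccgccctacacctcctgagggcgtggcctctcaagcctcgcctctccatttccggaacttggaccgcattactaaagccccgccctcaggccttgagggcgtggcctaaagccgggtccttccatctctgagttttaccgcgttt
Chek1 promoter, chr9:36726609-36726908, minus strand: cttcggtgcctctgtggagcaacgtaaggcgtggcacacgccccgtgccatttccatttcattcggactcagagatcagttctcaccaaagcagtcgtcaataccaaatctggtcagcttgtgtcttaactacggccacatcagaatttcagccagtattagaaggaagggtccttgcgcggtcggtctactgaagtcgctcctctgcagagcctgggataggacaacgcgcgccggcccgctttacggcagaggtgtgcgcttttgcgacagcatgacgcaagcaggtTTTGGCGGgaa
Chek2 promoter, chr5:110839733-110840032, plus strand: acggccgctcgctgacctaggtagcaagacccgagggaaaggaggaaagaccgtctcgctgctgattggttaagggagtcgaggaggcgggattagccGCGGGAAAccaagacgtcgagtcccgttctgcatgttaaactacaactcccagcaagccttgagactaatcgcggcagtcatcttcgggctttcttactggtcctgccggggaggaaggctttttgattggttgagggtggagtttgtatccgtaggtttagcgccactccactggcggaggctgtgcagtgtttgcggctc

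The promoters of Xrcc5, Parp1, Fanci and Ercc4, also lower, hold none of these letters in this window, and those of Brca2 and Msh3, not called, do. Of the 37 promoters, the 2 listed for Rad54l cover nearly the same bases and are counted apart. The CCAAT box was in 20 of the 37 promoters (54.1%, with both of Rad54l among them), beside 37.7% of those of tested genes. The cell cycle homology motif TTTGAA was in 2 (5.41%), beside 11.9%. These matches describe letters and no binding.

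Over the 5 days, 21 of the 43 genes had their highest mean at day 1 (48.8%, beside 20.8% of all tested genes), and 23 had their lowest at day 4 (53.5%, beside 26.7%). The day 4 count changed whichever day 0 library was left out, and the day 1 count only without the first. Without the first, 11 genes were highest at day 1 (25.6%, beside 19.1% of all tested genes) and 27 lowest at day 4 (62.8%, beside 28.1%). Without the second, 21 were highest at day 1 (48.8%, beside 21.0%) and 14 lowest at day 4 (32.6%, beside 23.7%). The mean was lower at each step from day 1 to day 4 in 18 genes (41.9%, beside 18.8% of all tested genes). Low day 4 values help define both this set and the 9 called genes, so an overlap is partly built in. Those 18 hold 8 of the 9 genes called at day 4, the exception being Chek2. Another is Rad54l, a recombination motor protein, named after its values were seen, with 2790 and 3002 at day 1, 2399 and 2058 at day 2, 1912 and 1685 at day 3, and 1414 and 1400 at day 4. Wrn was the 1 gene with a higher mean at every step (2.33%, beside 6.36% of all tested genes). The mean was lower at every step in 3 genes, Chek1, Xrcc4 and Xrcc5 (6.98%, beside 6.86%). These are counts of means, and no single step passed the test.

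By limma, 0 of the 43 genes were called between any day and the day before, against 3.3% of all genes for day 1, 0.593% for day 2, 0.133% for day 3 and 2.93% for day 4. At an unadjusted p under 0.05 the counts were 4 for day 1 (20.1% of all genes), 3 for day 2 (19.3%), 4 for day 3 (10.4%) and 3 for day 4 (14.9%), edgeR called 0 in each step, and DESeq2 called 1, Xrcc5 lower at day 2. The members' median step was 0.17 for day 1, -0.06 for day 2, -0.06 for day 3 and -0.12 for day 4, where that of all genes was between -0.01 and 0.01. For day 1 the median was -0.10 without the first day 0 library and 0.42 without the second, so its sign depends on 1 library. The member with the smallest p in each step, named after its value was seen, was Rad50 for day 1 (0.76 ± 0.25, adjusted p = 0.137), Xrcc5 for day 2 (-0.80 ± 0.20, adjusted p = 0.0794), Msh6 for day 3 (-0.61 ± 0.18, adjusted p = 0.287) and Chek2 for day 4 (-0.58 ± 0.19, adjusted p = 0.153). Over all 5 days together, 8 of the 43 genes were called changed by the limma F test (18.6%, beside 38.9% of all genes), the 9 above without Ercc4.

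Of the 5 pairs of time course libraries, the day 0 pair had the largest median difference in these genes. In the first, 38 of the 43 genes were lower than in the second, with a median log2 difference of -0.41, where the median of all genes was 0.01. Over 1.5-fold, 19 members (44.2%) were lower in the first library and 1 was higher, where 22.8% of all tested genes were lower. Counted in either direction, the share past 1.5-fold was 46.5% of the members and 47.1% of all tested genes, so the members stood apart in direction and not in how many differed. Homologous recombination genes (median -0.95, lower in 8 of 8) and Fanconi genes (lower in 4 of 4) differed most, and nucleotide excision repair genes least (median -0.07). Wrn at 323 and 702, Lig3 at 1953 and 4572 and Rad54l at 1117 and 2857 show the size of the gap. In the other 4 pairs of the time course the members' median difference was between -0.05 and 0.13.

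Other genes moved between these libraries as well. The 25 p53 target genes outside the 43 had a median difference of 0.88, higher in the first day 0 library, with Cdkn1a, the p53-induced cell cycle inhibitor, at 9923 and 1272 and Mdm2, the p53 ubiquitin ligase, at 10751 and 4282. Their summed signal was 154061 and 68811 at day 0, and 67629 to 97740 in the later libraries. The immediate early gene Fos was at 5860 and 144, and the ribosomal precursor Rn45s at 177624 and 85185. The 24 S phase genes had a median difference of -0.24 and the 20 G2 and M phase genes of -0.16. Their part in the result was not tested, and both libraries carry the same label.

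**Figure D3:**
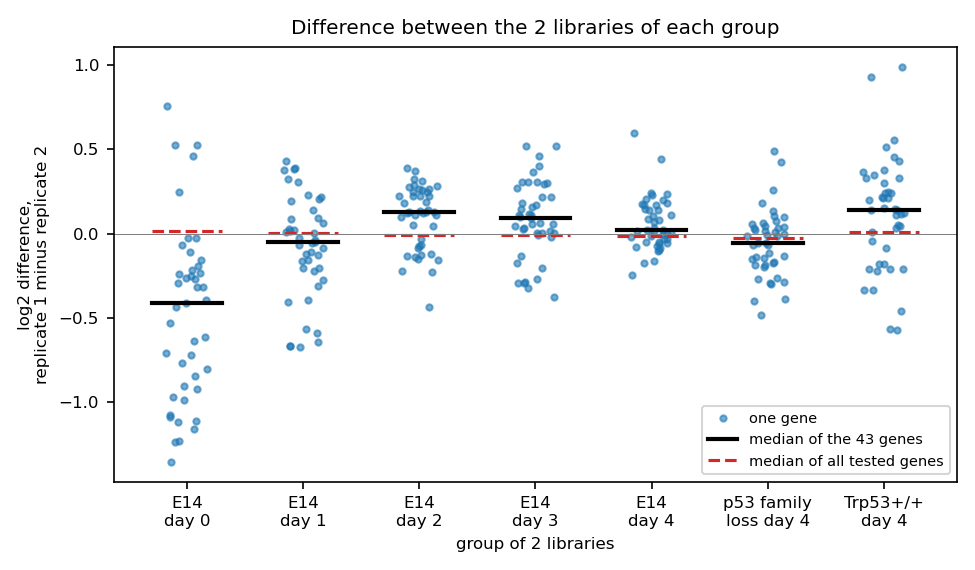
Log2 difference in signal between replicate 1 and replicate 2 of each group of 2 libraries, with 1 point per gene for the 43 genes, a black bar at their median and a dashed red bar at the median of all tested genes. The day 0 pair stands apart with a median of -0.41, while the other pairs have medians of -0.05 to 0.14.

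All 9 lower genes were called without the first day 0 library and 8 of the 9 without the second, and the choice of library set which further genes passed. Without the first day 0 library, 16 genes were lower at day 4 (18.8% of all genes were), the added ones being Brca1, Brca2, Ercc3, Fanca, Fancd2, Palb2 and Rad54l. Without the second, 6 genes were higher, namely Atm, Blm, Lig3, Rad50, Rad52 and Wrn (24% of all genes were higher), and 9 were lower, with Xrcc4 in and Ercc4 out (22.8% of all genes). For day 1 with day 0, 12 genes were higher and 1 (Xpa) lower without the second library (16.4% and 15.3% of all genes), and 0 were called without the first. Setting day 4 against day 1, as added after the data were seen, gave 10 lower genes with day 0 kept in the fit, the 9 and Rad54l (16.8% of all genes). With both day 0 libraries left out of the fit as well, it gave 15 lower genes (24.1% of all genes) and 1 higher (25.2%), Xpa, the scaffold of excision repair. The 9 genes called with day 0 were all among the 15, and Msh6 at -1.62, Xrcc5 at -1.46 and Fanci at -1.16 had the largest falls.

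The rest of the pathway was read from 88 tested repair and checkpoint genes outside the 43. Their median log2 fold change from day 0 to day 4 was -0.17, and 20.5% were called in either direction, beside 36% of all genes. At day 4, 16 were lower and 2 higher than at day 0 (16.7% and 19.2% of all genes were). By smallest p they were Rif1, which shields broken ends from resection (9839 ± 380 at day 4 and 23143 ± 5510 at day 0, SD, n = 2 each, log2 fold change -1.21 ± 0.20, adjusted p = 0.00155), Fancm, the translocase that recruits the Fanconi core (-1.16 ± 0.20, adjusted p = 0.00202), Rad51c, a homologous recombination gene (-1.08 ± 0.21, adjusted p = 0.00374), and Fancl, the ubiquitin ligase of the core (-0.90 ± 0.18, adjusted p = 0.00448). Beside them, 5 of 24 S phase genes were lower and 0 higher, with a summed signal of 138560 and 155970 at day 4 and 175695 and 209656 at day 0. Of 20 G2 and M phase genes, 4 were lower and 0 higher (154997 and 142618 at day 4, 182874 and 189736 at day 0). Of 25 p53 targets, 10 were lower and 2 higher. In either direction, 20.8% of the S phase and 20% of the G2 and M phase genes were called. The share was 48% of the p53 targets and 36% of all genes. Pluripotency markers summed to 26693 and 26527 at day 4, against 148099 and 129579 at day 0, and primitive streak markers to 67543 and 61206 against 1174 and 385, with no marker of either list at 0 in both libraries of a group. Of markers of other cell types, 4 of 7 visceral endoderm, 4 of 7 trophoblast, 4 of 9 neuroectoderm and 2 of 7 fibroblast genes were higher at day 4, and 1 trophoblast and 1 neuroectoderm gene were lower. The part of these changes in the fold changes of the repair genes was not tested.

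Between the genotypes the question was which genes depend on the p53 family in day 4 EBs, and p53 is a known direct regulator of several repair genes. By limma, 0 of the 43 genes were called between p53 family loss and Trp53+/+, against 1.24% of all 14840 tested genes (0.566% higher and 0.674% lower). At an unadjusted p under 0.05 there were 7 members (16.3%, beside 13.9% of all genes), edgeR called 0, and DESeq2 called 3 lower (2.52% of all genes), namely Ercc5, Polk and Rad52, and 0 higher. A p that misses the threshold does not show that the lines are alike. In all, 27 fold changes were above 0 and 16 below, with a median of 0.10, beside 0.01 over all genes. Both p53 family loss libraries lay above both Trp53+/+ libraries in 14 genes (23% of all genes did so) and below them in 9 (20.2%).

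The largest differences, described here after their values were seen, were below 0. Ercc5, which encodes the XPG nuclease of excision repair, had 790 and 735 in p53 family loss, against 1649 and 1312 in Trp53+/+ (log2 fold change -0.95 ± 0.18, adjusted p = 0.0839 by limma and 0.00229 by DESeq2). Polk, the translesion polymerase kappa, had 283 and 297 in p53 family loss, against 627 and 483 in Trp53+/+ (-0.92 ± 0.22, adjusted p = 0.123 by limma and 0.0161 by DESeq2). For Rad52, a recombination mediator, the values were 373 and 420 in p53 family loss, against 580 and 864 in Trp53+/+ (-0.84 ± 0.24, adjusted p = 0.197 by limma and 0.0415 by DESeq2). In each of the 3 genes both p53 family loss libraries lay below both Trp53+/+ libraries. Xpa had 201 and 203 in p53 family loss, against 295 and 341 in Trp53+/+ (-0.65 ± 0.22, adjusted p = 0.259), and Ercc1 and Ercc2, a helicase of TFIIH, had -0.41 ± 0.17 and -0.44 ± 0.16. Of the 9 excision repair genes, 4 had both p53 family loss libraries below both Trp53+/+ libraries (20.2% of all genes did) and 3, Xpc, Ercc3 and Ddb2, had them above (23%), and none of them passed the limma test.

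**Figure D4:**
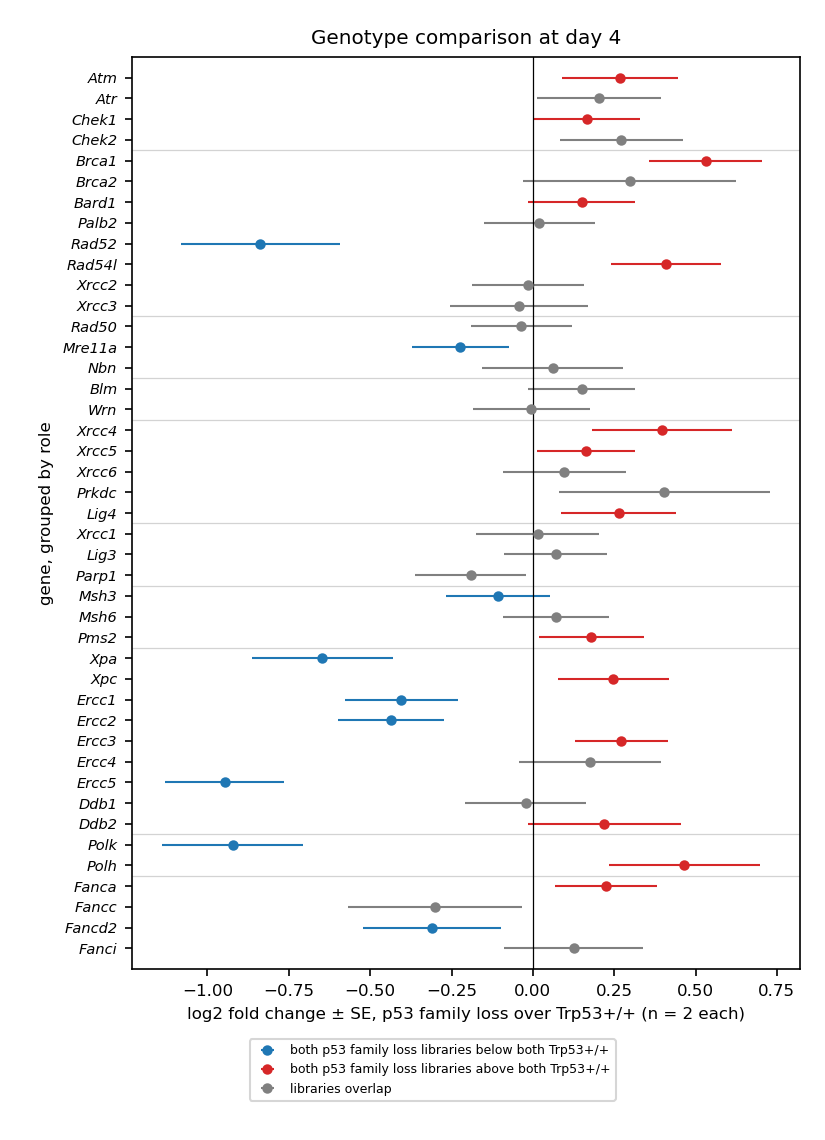
Log2 fold change ± SE of p53 family loss over Trp53+/+ at day 4 (n = 2 each) for the 43 genes, grouped by role, with blue and red for genes whose libraries do not overlap and grey for those that do. Ercc5, Polk, Rad52 and Xpa lie farthest to the left, and Brca1 farthest to the right.

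Ddb2 and Xpc are textbook p53 targets in human cells. Ddb2 had 245 and 233 in p53 family loss, against 230 and 183 in Trp53+/+ (0.22 ± 0.23, adjusted p = 0.776), and Xpc had 1097 and 1073 against 994 and 841 (0.25 ± 0.17, adjusted p = 0.624). Neither was lower without the p53 family. Of the 25 p53 targets outside the 43, 7 were lower and 0 higher, with a summed signal of 27636 and 31982 in p53 family loss, against 53349 and 55442 in Trp53+/+. Cdkn1a among them had 203 and 127 against 2096 and 2323, and Mdm2, not called, had 1766 and 1581 against 3042 and 2372.

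Of the checkpoint kinases, all 4 had fold changes above 0 and none passed the test. Atm had 3253 and 3603 in p53 family loss, against 3226 and 2506 in Trp53+/+ (0.27 ± 0.18, adjusted p = 0.609). Atr had 2120 and 2058 against 2108 and 1562 (0.20 ± 0.19, adjusted p = 0.740), with overlapping groups. For Chek1 the signal was 1376 and 1577 against 1372 and 1258 (0.17 ± 0.16, adjusted p = 0.757), and for Chek2 1800 and 2167 against 1455 and 1837 (0.27 ± 0.19, adjusted p = 0.627). Brca1 had the highest fold change of the 43, at 3309 and 3169 in p53 family loss and 2528 and 1986 in Trp53+/+ (0.53 ± 0.17, adjusted p = 0.246). Brca2 had 3129 and 2225 in p53 family loss, against 2966 and 1555 in Trp53+/+, with overlapping groups (0.30 ± 0.33, adjusted p = 0.784). Parp1 had 13390 and 15132 against 15049 and 17555 (-0.19 ± 0.17, adjusted p = 0.716). All 5 end joining genes had fold changes above 0, from 0.10 (Xrcc6) to 0.40 (Prkdc), and the mismatch repair genes had -0.11 (Msh3) to 0.18 (Pms2). The MRN genes had -0.22 (Mre11a) to 0.06 (Nbn), Blm 0.15 ± 0.17 and Wrn a value near 0, the Fanconi genes -0.31 (Fancd2) to 0.22 (Fanca), and Polh, polymerase eta, 0.47 ± 0.23.

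**Figure D5:**
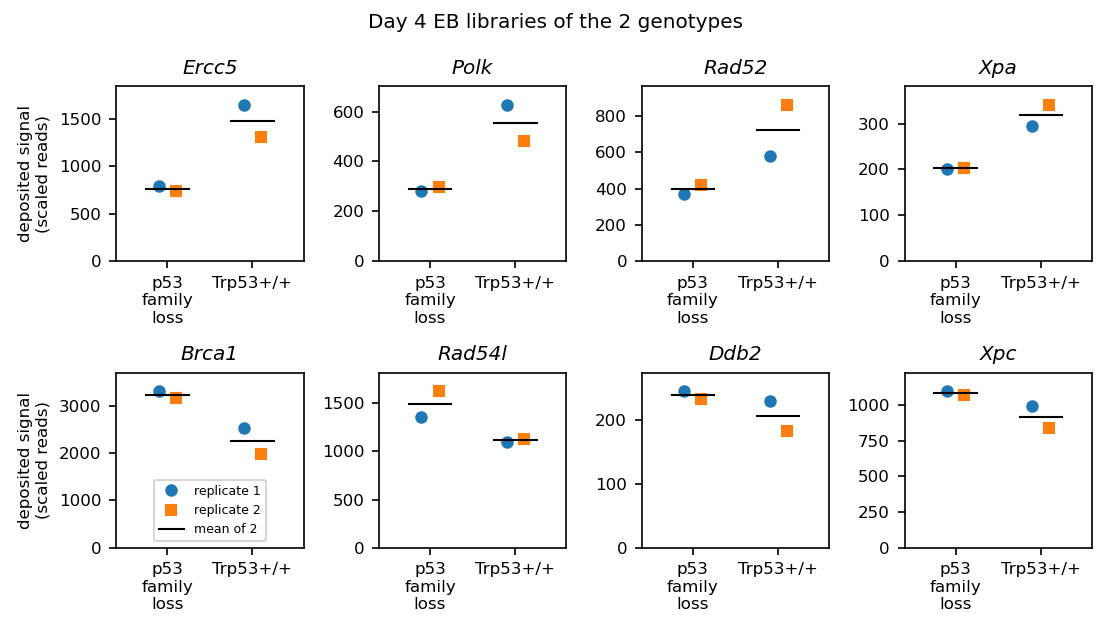
Deposited signal of 8 genes in the day 4 EB libraries, with p53 family loss left and Trp53+/+ right in each panel, replicate 1 as circles, replicate 2 as squares and a bar at the mean of 2. Ercc5, Polk, Rad52 and Xpa have both p53 family loss libraries below both Trp53+/+ libraries, and the other 4 genes have them above.

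The second Trp53+/+ library bore on several of these values. Prkdc had 1765 and 1472 in p53 family loss, against 1717 and 864 in Trp53+/+, and Brca2 showed a like gap. Without that library 25 of the 43 fold changes were below 0 and 18 above, with a median of -0.02, and Ercc5 and Polk were called lower (3.87% of all genes). Without the first Trp53+/+ library, Ercc5 and Rad52 were called lower (4.15% of all genes) and Brca1, Brca2 and Prkdc higher (6.41%). Rn45s held 0.848% and 2.91% of reads in the p53 family loss libraries and 0.632% and 4.30% in Trp53+/+, and its part in these values was not tested. In the p53 family loss libraries 10 of 10 primitive streak markers were lower (summed signal 9727 and 9889, against 46035 and 47684 in Trp53+/+) and 3 of 8 tested neuroectoderm markers higher (7694 and 8248, against 3377 and 4960), and the part of these marker changes was not tested.

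The fall over the days and the genotype difference can be set side by side only as values, since limma called 0 of the 43 genes between the genotypes. The 9 genes lower at day 4 had genotype fold changes of -0.19 (Parp1) to 0.27 (Chek2), with Xrcc5 at 0.16 and Msh6 at 0.07. The 3 genes with the largest genotype difference had day 4 over day 0 values of 0.38 (Ercc5), -0.06 (Polk) and 0.39 (Rad52), none of them called. By sign, 21 genes were below 0 at day 4 and above 0 in p53 family loss, 9 below 0 in both, 7 above 0 at day 4 and below 0 in p53 family loss, and 6 above 0 in both. The comparisons share no library, and they differ in cell line, background and culture medium. The p53 consensus motif, searched by name as a single decamer, was in 2 of the 37 promoters (5.41%, beside 6.93% of those of tested genes). They belong to Fanca and Polk, and the other promoter listed for Polk lacks it.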

How the data were processed

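RNA libraries were made with TruSeq RNA v2 per the labels' protocols. The submitters' processing notes list build mm9, HTSeq 0.5.4, SAMtools 0.1.19, Bowtie2, DESeq2 and FastQC 0.11.3, without their roles. The deposited signal proved to be whole reads divided by 1 factor per library (100% of values whole within 1e-06). A count test was planned only for raw counts, so limma stayed the main test. As alternatives, edgeR and DESeq2 ran on the recovered reads. The 2 tables were scaled separately and are not compared as levels. The 16 ChIP-seq and input samples were not analysed here.

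Tests on log2(signal + 1) used limma 3.58.1 under R 4.3.3, with its trend option, fitted on all genes kept by filterByExpr (15841 in the time course, 14840 for the genotypes), with Benjamini-Hochberg adjustment over them and a threshold of 0.05. A pseudocount understates changes of low genes. Scripts were tested on simulated data. Alternatives were edgeR 4.0.16, DESeq2 1.42.0, other scalings, pseudocounts of 0.5 and 5, other filters, no trend, a replicate block and each library left out. A fit that leaves 1 library in a group assumes that it varies like the others.

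The 43 genes and the lists were chosen with earlier results of these data known, and support nothing by themselves. Values in every library are given for genes called at day 4, and always for Atm, Atr, Chek1, Chek2, Brca1, Brca2, Parp1, Ddb2 and Xpc; other genes are given by range or were named after their values were seen. Promoters are RefSeq's for GRCm38.p6.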

Additional observations from a re-analysis of the deposited data

How the results depend on the processing

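Of the 43 genes' counts, 239 recomputed values stayed within 1.5 times of the main value and 28 did not, and no called fold change reversed. Most main counts are 0, and a 0 that stayed 0 is among the 239, so that number does not measure how stable the calls are. Calls lower at day 4 ranged from 3 to 16 over libraries left out in turn and calls higher from 0 to 6, with 3 lower with only days 0 and 4 in the fit. Calls higher were 1 with DESeq2, 2 with scaling by library total and 1 with day 4 set against day 1 in days 1 to 4 only, where 15 were lower. For any change, scaling by library total gave 5, and leaving out libraries gave 3 to 20. Between steps, leaving out libraries gave 0 to 12 higher and 0 to 1 lower for day 1, 0 to 4 lower for day 2 and 0 to 1 lower for day 4, and DESeq2 gave 1 lower for day 2. For the genotypes, DESeq2 gave 3 lower, and leaving out libraries gave 0 to 3 higher and 0 to 2 lower. The cause of these shifts was not tested.

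The labels give the same replicate numbers in each group but do not pair the samples. Deviations of same-numbered libraries correlated at -0.19 to 0.35 in the time course and at 0.57 in the genotype table, where 2 pairs do not settle it. With the replicate block, 1 gene (Wrn) was higher and 9 lower at day 4 (19.4% and 17.1% of all genes). In p53 family loss, Brca1, Polh and Rad54l were then called higher (3, with 10.4% of all genes) and Ercc1, Ercc2, Ercc5, Polk, Rad52 and Xpa lower (6, with 9.6%).

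Over all genes, calls for day 4 were 3045 higher and 2653 lower. They ranged from 1579 to 3673 and from 1243 to 3108 under the planned settings other than leaving out single libraries. The count of 1243 came from the fit with only days 0 and 4. With all libraries kept, the lowest count of lower genes was 1938, under a stricter filter on low values. For the genotypes, calls were 84 and 100, and ranged from 33 to 1548 and from 53 to 1425 with all libraries kept. For single steps the ranges were 164 to 673 higher and 162 to 777 lower for day 1 (277 and 246), 0 to 644 and 0 to 643 for day 2 (25 and 69), 7 to 173 and 0 to 142 for day 3 (21 and 0), and 179 to 666 and 55 to 349 for day 4 (366 and 98). With 2 libraries a group, differences within the spread of a pair, as at day 0, could not be detected.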

Other observations

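Of the 88 other repair and checkpoint genes, the 2 that were higher at day 4 by limma were Parp3, a PARP family enzyme of break repair (174 ± 9.90 at day 4 and 72.8 ± 7.25 at day 0, SD, n = 2 each, log2 fold change 1.25 ± 0.38, adjusted p = 0.0289), and Neil3, a DNA glycosylase (507 ± 65.3 at day 4 and 276 ± 87.1 at day 0, 0.90 ± 0.31, adjusted p = 0.0451). Both were named after their values were seen. Between the 2 day 0 libraries, 58 of the 88 were lower in the first (65.9%, beside 49.1% of all genes), with a median log2 difference of -0.28. In the genotype comparison 0 of the 88 were called by limma, beside 1.24% of all genes. An unadjusted p under 0.05 was reached by 10 of the 88, beside 13.9% of all genes. Ogg1, the glycosylase of oxidised guanine, was among them and was named after its values were seen. Its group means were 395 in p53 family loss and 701 in Trp53+/+ (-0.83 ± 0.19, adjusted p = 0.116 by limma).

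In RefSeq, 11 of the 43 genes overlap another protein-coding gene of the tables, among them Msh6 with Fbxo11, Fanci with Polg, Ercc1 with Cd3eap and Ercc2 with Klc3. Overlaps with non-coding genes were not counted. The use of strand in counting is not given in the sources used here, so reads in such overlaps cannot be told apart.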
